A study of Homo sapiens with 6 samples.

Results

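The S100 genes encode small calcium-binding proteins, and 10 of them were followed here in SiHa PR cells with and without P4HA3 overexpression: S100A2, S100A4, S100A6, S100A7, S100A8, S100A9, S100A10, S100A11, S100A14 and S100A16. They were chosen from a list of gene symbols drawn up with the fold changes of these libraries known, so the values of these 10 genes are given as a description and carry no p-value. All 10 were found among the 60664 genes counted, and 8 of them passed the filter on low counts. SiHa is an established human cervical squamous carcinoma line, and SiHa PR names the parental cells of the study. RNA was sequenced from 3 control samples, labelled only SiHa PR and marked as vector in the study's heatmap of the RNA-seq, and from 3 samples labelled SiHa PR P4HA3, in which P4HA3 was overexpressed from a lentiviral pCDH construct. P4HA3 is a catalytic subunit of collagen prolyl 4-hydroxylase. The promoter of the construct, and whether either population was a single clone, are not given in the sources used here, and no label says that the 3 samples of a group were separate cultures, so their spread may be technical.

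S100 proteins bind calcium through a pair of EF-hands, change shape, and then dock onto target proteins such as annexins, myosin and cytoskeletal scaffolds. They usually act as dimers. S100A8 and S100A9 form calprotectin, which is abundant in myeloid cells and is induced in stressed squamous epithelium, while S100A10 forms a complex with annexin A2 at the plasma membrane. Several S100 proteins are also released and are bound by surface receptors that include RAGE, TLR4 and basigin. Most of the genes lie in the epidermal differentiation complex of chromosome 1, beside genes of the cornified envelope.

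Total counts ran from 21773488 to 24589095 in control libraries and from 22160298 to 24939948 with P4HA3 overexpression. The targeted gene followed the labels. P4HA3 stood at 3.53, 2.91 and 3.80 CPM (counts scaled to a common library size, normalized by TMM) in control replicates 1, 2 and 3 and at 1934, 1991 and 1936 CPM in the overexpressing replicates, which includes reads from the construct. The epithelial identity was checked with 8 markers, of which 6 were tested. By edgeR 2 of these, KRT18 and CDH1, were called lower and 0 higher, where 11.4% of all tested genes were called lower and 9.36% higher. The keratins KRT7, KRT8 and KRT18 were abundant in every library, at 4071 to 4979, 1639 to 1895 and 659 to 997 CPM, whereas KRT5 and TP63, which mark basal squamous cells, did not pass the filter. One label describes uterine smooth muscle instead of SiHa cells, but MYH11, DES and CNN1, which define smooth muscle, had at most 9 counts in any library, while ACTA2 had 161 to 204 counts in every library and ACTG2 had 30, 40 and 44 counts in control replicate 3 and overexpression replicates 1 and 3 and at most 1 elsewhere. Of the 6 smooth muscle markers these 2 were tested, and 0 were called by edgeR, by DESeq2 or at an unadjusted p under 0.05, though ACTG2 was called in 5 of 13 alternatives. The 7 fibroblast markers were all detected, COL1A1 at 46.8 to 62.8 CPM and DCN at 20.7 to 29.8 CPM, and edgeR and DESeq2 called 0 of them (1 was lower at an unadjusted p under 0.05). COL1A1 and LUM were called in 2 of 15 alternatives, and COL1A2, COL3A1 and DCN in 1. For LUM these included the correction for GC content and length described below (log2 fold change -0.40, adjusted p = 0.0157 by edgeR).

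S100A9 and S100A14 showed the largest differences among the 8 tested genes, S100A4 and S100A6 smaller ones, and S100A2 was level between the groups. In the edgeR quasi-likelihood test, with adjusted p under 0.05 over 15130 genes as the threshold, 4 of the 8 tested genes were called lower with P4HA3 overexpression and 0 were called higher. At an unadjusted p under 0.05, 6 were lower and 0 higher, and DESeq2 called 5 lower and 0 higher. Over all tested genes edgeR called 11.4% lower and 9.36% higher by adjusted p. An unadjusted p under 0.05 was found for 5854 of the 15130 genes, both directions together. DESeq2 called 1519 genes lower and 1498 higher out of 27552. The groups did not overlap in the same 4 genes, all with overexpression below control, where 20.4% of all tested genes lay below without overlap and 19.7% above. The median log2 fold change was -0.33 over the 8 genes and 0.01 over all tested genes. Since the list was made with this contrast known, these counts describe the list and support nothing further.

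**Figure D1:**
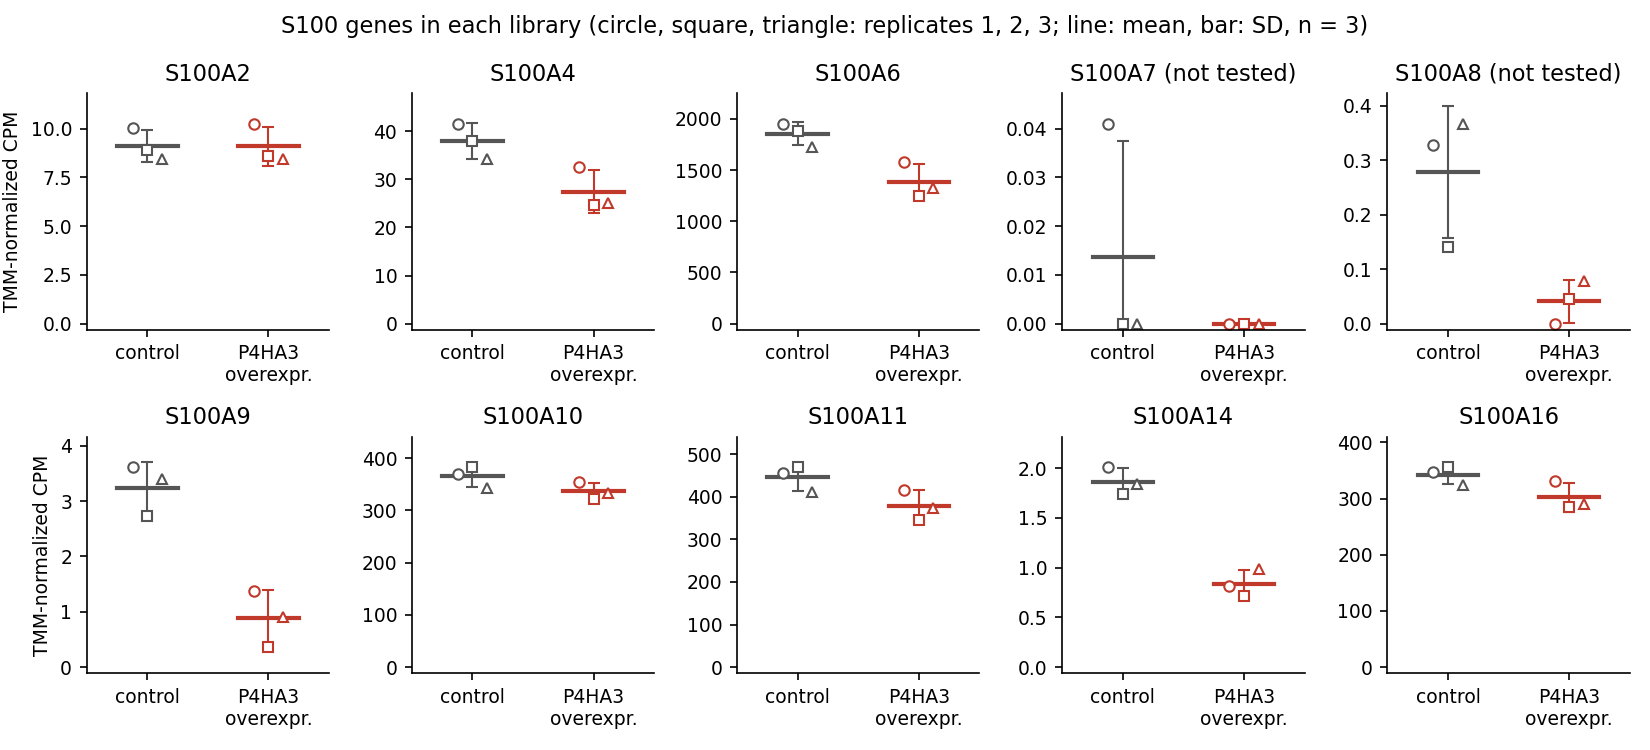
Expression of the 10 S100 genes in each library, as TMM-normalized CPM on a linear axis that includes 0, with a separate scale for each gene. Grey marks control and red P4HA3 overexpression, circles, squares and triangles mark replicates 1, 2 and 3, lines mark the mean and bars the SD (n = 3). The groups are apart in S100A4, S100A6, S100A8, S100A9 and S100A14, and overlap in the other 5 genes.

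Calprotectin was low in these cells. S100A9 (ENSG00000163220, chr1:153357854-153361023, plus strand, GRCh38) stood at 3.61, 2.72 and 3.39 CPM in control replicates 1, 2 and 3 and at 1.37, 0.356 and 0.907 CPM with P4HA3 overexpression. These values rest on 88, 58 and 83 counts against 32, 8 and 23. Every overexpressing library was below every control library, and the overexpressing libraries differed among themselves more widely, relative to their mean, than the controls did. The log2 fold change was -1.88 ± 0.31 (SE), a level 3.68-fold lower, and it lay between -2.33 and -1.53 under the other ways of processing that were tried. S100A8 (ENSG00000143546, chr1:153390032-153391073, minus strand), the calprotectin partner of S100A9, had 8, 3 and 9 counts in control and 0, 1 and 2 with overexpression and was too low to be tested. Scaled for library size, its summed count with overexpression was 0.150 of that in control, with an exact 95% interval of 0.0284 to 0.504 that covers counting error only. Both calprotectin genes thus sat lower in every overexpressing library than in any control library. S100A8 lay below the floor of 3 counts per library, or 0.120 to 0.138 CPM, in every overexpressing library. In control replicate 2 it lay at that floor.

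S100A7 (ENSG00000143556, chr1:153457744-153460651, minus strand), known as psoriasin and induced in inflamed epidermis, had 1 count in control replicate 1 and 0 in the other 5 libraries. S100A12, the third S100 gene typical of myeloid cells, and the psoriasin relatives S100A7A and S100A7L2 had 0 counts throughout. The myeloid markers were examined because S100A8 and S100A9 are myeloid genes. Of 8 such markers, PTPRC, ITGAM, LYZ and MPO, which define leukocytes, had 0 or 1 count in each library. CSF1R had 1, 0 and 1 counts in control and 2 in each overexpressing library, and FCGR3A had 2, 1 and 2 against 1, 0 and 0. The exceptions were ITGB2, an integrin subunit, at 15.7 to 18.4 CPM (not called), and CD14, a lipopolysaccharide co-receptor. CD14 stood at 98.8, 110 and 91.3 CPM in control and 50.8, 35.1 and 49.3 CPM with overexpression (log2 fold change -1.15, adjusted p = 0.000757 by edgeR). The summed level of the 8 markers, nearly all of it from these genes, ran from 108 to 128 CPM in control and from 50.8 to 67.1 CPM with overexpression. The part of CD14-expressing cells in the S100A9 values was not tested, and in these bulk libraries fewer cells of a type and less RNA per cell cannot be told apart.

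S100A14 (ENSG00000189334, chr1:153614255-153616986, minus strand), an epithelial family member, stood at 2.01, 1.74 and 1.84 CPM in control replicates 1, 2 and 3 and at 0.816, 0.712 and 0.986 CPM with overexpression. The counts behind these levels were 49, 37 and 45 against 19, 16 and 25. The groups were well apart, with the highest overexpressing library below the lowest control. The log2 fold change was -1.15 ± 0.20, or 2.22-fold lower, and it lay between -1.29 and -1.04 under the other ways of processing that were tried. E-cadherin (CDH1), an epithelial adhesion gene and one of the markers, was also lower, at 16.6, 16.5 and 16.2 CPM in control and 8.85, 9.65 and 10.5 CPM with overexpression (log2 fold change -0.77, adjusted p = 0.00114 by edgeR). EPCAM, the other surface marker of epithelium, had a log2 fold change of -0.07 and was not called. Of the keratin markers tested, KRT18 was called lower (-0.40), and KRT7 (0.08), KRT8 (-0.09) and KRT19 (0.22) were not called. With the correction for GC content and length, KRT7 was called higher (0.33, adjusted p = 0.00186 by edgeR). KRT18 was then still called lower (-0.20), and KRT8 and KRT19 were again not called.

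S100A4 and S100A6 are close relatives in position, and both bind cytoskeletal targets: S100A4, also called metastasin, binds non-muscle myosin IIA, and S100A6, calcyclin, binds annexins and the calcyclin-binding protein. S100A4 (ENSG00000196154, chr1:153543613-153550136, minus strand) stood at 41.6, 38.0 and 34.1 CPM in control and at 32.6, 24.6 and 25.2 CPM with overexpression. S100A6 (ENSG00000197956, chr1:153534599-153536244, minus strand) stood at 1955, 1886 and 1729 CPM in control and at 1578, 1249 and 1327 CPM with overexpression. In both genes replicate 1 was the highest library of each group, and in both the highest overexpressing library was only slightly below the lowest control. The log2 fold change was -0.47 ± 0.12 for S100A4, or 1.38-fold lower. For S100A6 it was -0.42 ± 0.09, or 1.34-fold lower, on counts between 28088 and 47604, so the spread between samples and not counting set its error. Both calls were lost when control replicate 1, control replicate 2 or overexpression replicate 3 was left out, which left 2 of the 10 genes called lower, S100A9 and S100A14. In those 3 fits the calls over all genes also dropped, from 3147 to between 534 and 904.

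The members that partner annexins at the membrane, together with S100A16 and S100A2, were not called. S100A11 (ENSG00000163191, chr1:152032506-152047907, minus strand), which binds annexin A1, stood at 457, 470 and 410 CPM in control and at 417, 345 and 375 CPM with overexpression. The lowest control lay below the highest overexpressing library, so the groups overlapped, and the log2 fold change of -0.23 ± 0.08 was called in 6 of 15 alternatives. S100A10 (ENSG00000197747, chr1:151982915-151993859, minus strand), the light chain of the annexin A2 complex, ranged from 343 to 383 CPM in control and from 321 to 354 CPM with overexpression, with a log2 fold change of -0.12 ± 0.06. S100A16 (ENSG00000188643, chr1:153606886-153613145, minus strand) ranged from 324 to 356 CPM and from 285 to 332 CPM, with a log2 fold change of -0.18 ± 0.07. All 3 had lower means with overexpression, by less than S100A4 and S100A6. S100A2 (ENSG00000196754, chr1:153561108-153567890, minus strand), a gene of basal epithelium and a target of p53-family factors, stood at 10.02, 8.92 and 8.42 CPM in control and at 10.3, 8.58 and 8.44 CPM with overexpression. Its log2 fold change was -0.005 ± 0.11, and replicate 1 was again the highest library of each group.

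Per length, the family spanned several orders of magnitude in control cells. Levels per kilobase of the canonical transcript (RPKM) were 4278 ± 267 (SD, n = 3) for S100A6, 792 ± 55.5 for S100A11, 545 ± 30 for S100A10, 349 ± 30.4 for S100P, 292 ± 14.02 for S100A16 and 73.9 ± 7.25 for S100A4. These 6 genes formed an order in which each was above the next in every control library. Much lower stood S100A13 at 13.6 ± 0.59, S100A3 at 11.5 ± 1.46 and S100A2 at 9.33 ± 0.84 RPKM, and neighbours in this trio overlapped. S100A9 followed at 5.66 ± 0.81, S100A14 at 1.77 ± 0.13, and S100A8 and S100A1 at 0.684 ± 0.30 and 0.552 ± 0.19 RPKM, of which the last pair overlapped. With P4HA3 overexpression the order of the first 6 was the same, while S100A2, at 9.31 ± 1.04 RPKM, stood above S100A13 at 9.07 ± 1.54 and S100A3 at 6.99 ± 0.76. The place of S100A13 depends on the length used, since by the union of its exons it ranked 10 and not 7.

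S100A6 made up most of the reads of the 10 genes, so their sum mainly follows it. The 10 genes took 0.316%, 0.308% and 0.289% of all counts in control replicates 1, 2 and 3 and 0.268%, 0.227% and 0.240% with overexpression. S100A6 accounted for 61.3%, 59.9% and 60.6% of that share in control and for 57.9%, 55.9% and 56.2% with overexpression. Both shares were lower in every overexpressing library than in any control library. The 10 S100 pseudogene rows examined had 0 counts in every library, as had S100A7L2, which is also annotated as a pseudogene. Whether reads that match both a pseudogene and a member were counted for the member is not known. The handling of reads with several matches is not given. S100A6 shares 37 exon bases, none of them coding, with a lncRNA on the other strand.

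The 11 S100 genes outside the list were then examined. Their p-values are given, though this list too was chosen with earlier results of these data known. Only S100A3, S100A13 and S100P passed the filter, of which 2 were called lower and 0 higher, where 20.8% of all tested genes were called in either direction. The counts were the same at an unadjusted p under 0.05, which 5854 of 15130 genes had. They were also the same by DESeq2, which called 3017 of 27552 genes. Of the rest of the 11, 5 had 0 counts in every library (S100A7A, S100A7L2, S100A12, S100G and S100Z), and S100A1, S100A5 and S100B had too few. S100A3, a cysteine-rich protein best known from hair cuticle, stood at 8.38, 9.67 and 7.52 CPM in control and at 5.80, 5.07 and 4.69 CPM with overexpression. Its groups were apart, with a log2 fold change of -0.72 ± 0.13 (1.64-fold lower, adjusted p = 0.00677 by edgeR), a call lost without control replicate 2 (adjusted p = 0.0504). S100A13, which takes part in the non-classical release of FGF1, stood at 6.57, 6.20 and 6.74 CPM in control and at 4.94, 3.51 and 4.53 CPM with overexpression. It too fell without overlap, by a log2 fold change of -0.59 ± 0.14 (adjusted p = 0.0166 by edgeR), and the call was lost without control replicate 1, control replicate 2 or overexpression replicate 3 (adjusted p between 0.0572 and 0.0707). Its exons share 536 bases with the lncRNA ENSG00000271853 on the same strand, so reads of these genes can be confused, and 235 bases with S100A1 on the other strand. S100A1 had only 22 counts in all in each group, a ratio of 0.997 with an interval of 0.526 to 1.89.

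S100P, a family member on chromosome 4 that is prominent in adenocarcinomas, was not called. It was abundant, at 178, 165 and 150 CPM in control and 199, 146 and 161 CPM with overexpression, and the groups overlapped fully. Its log2 fold change was 0.04 ± 0.11 (adjusted p = 0.828 by edgeR). It was called higher under 1 of 15 alternatives, the replicate block with the GC and length correction (0.14, adjusted p = 0.0325).

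**Figure D2:**
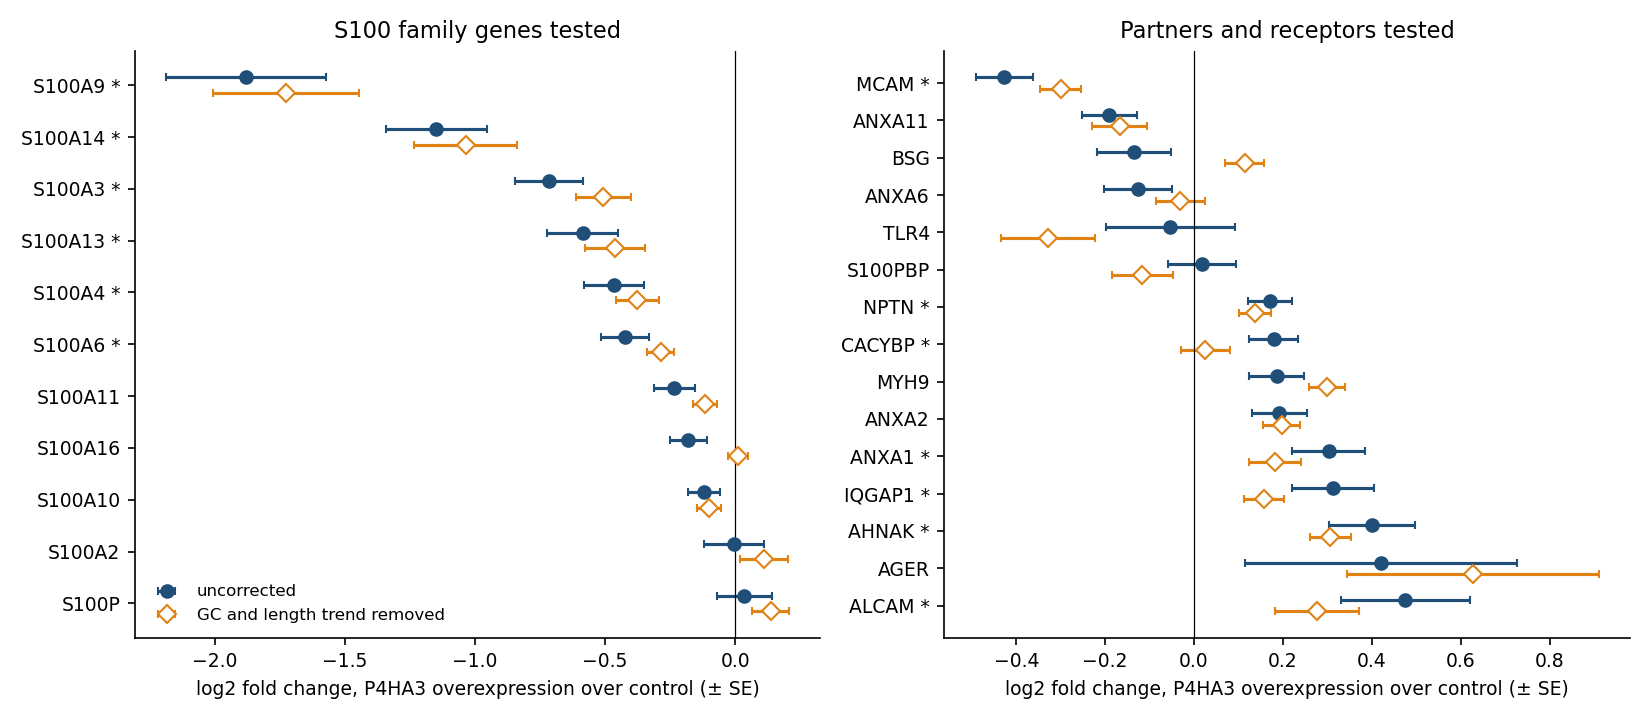
log2 fold changes of P4HA3 overexpression over control for the 11 S100 genes tested (left) and for 15 S100 partners and receptors (right). Filled circles are the uncorrected values and open diamonds those with the trend on GC content and length removed, bars are SE, and an asterisk marks an uncorrected adjusted p under 0.05. S100A9 and S100A14 lie farthest below 0, and S100A2 and S100P lie at it.

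Fold changes across all genes depended on base composition. Over 15107 genes the rank correlation of the log2 fold change with the GC content of the transcript was -0.58, and with transcript length 0.27, given as a description across genes of the same 6 libraries. The S100 transcripts are short, with a median of 622 bases over the tested members against 2936 over all tested genes, and their median GC content was 53.5% against 49.3%. The part of this trend in the S100 values was not tested, but the fold changes were also computed with it removed. The corrected log2 fold change was -1.73 ± 0.28 for S100A9, -1.04 ± 0.20 for S100A14, -0.38 ± 0.08 for S100A4 and -0.29 ± 0.05 for S100A6. All 4 were still called, which describes the list only. S100A11 moved to -0.12 ± 0.05, S100A16, the tested member of highest GC content at 57.9%, to 0.01 ± 0.04, and S100A2 to 0.11 ± 0.09. With the correction the median over the 8 tested members was -0.20 against 0.02 over all genes, and S100A3 (-0.51, adjusted p = 0.00766 by edgeR) and S100A13 (-0.46, adjusted p = 0.0184 by edgeR) were still called. The correction turned the split of all calls from 45.0% higher to 57.2% higher.

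**Figure D3:**
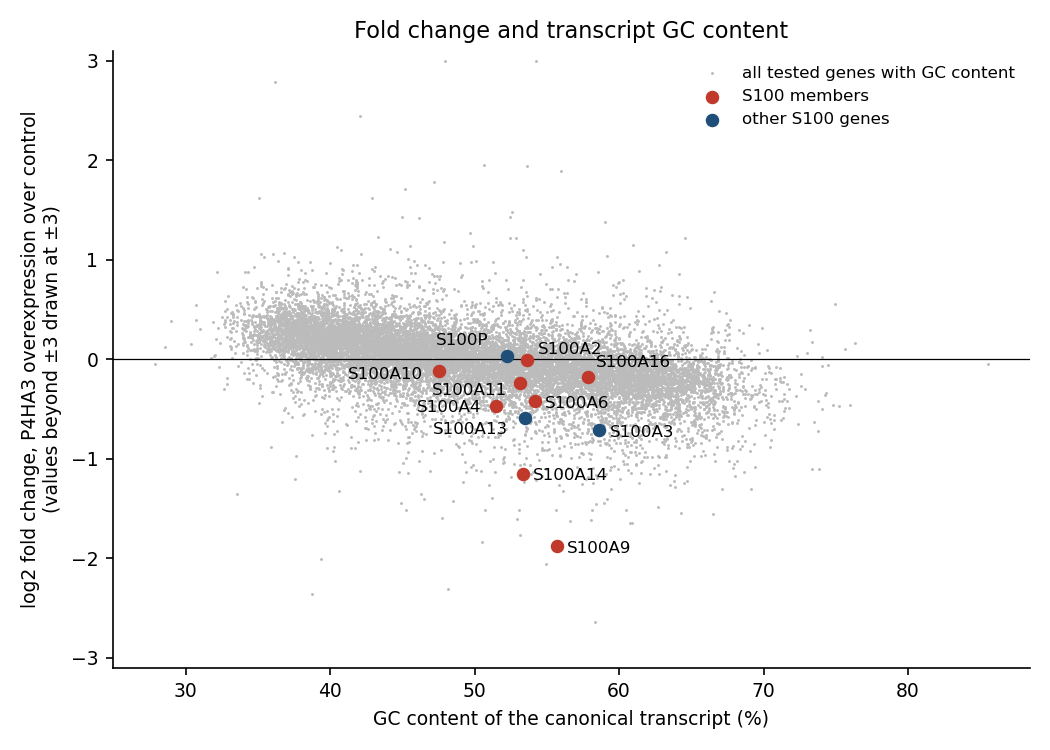
log2 fold change of P4HA3 overexpression over control against the GC content of the canonical transcript, in percent, for each tested gene (grey), the S100 members (red) and the other tested S100 genes (blue). Grey points fall from left to right, and S100A9 and S100A14 lie below most grey points of the same GC content.

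In position, 17 of the S100 genes lie together on chromosome 1 and form separate groups there. S100A10 and S100A11 lie 38646 bases apart at one end, followed by a gap of 1309946 bases to S100A9. The calprotectin and psoriasin genes come next, and then S100A6, S100A5, S100A4, S100A3 and S100A2, with S100A6 and S100A5 only 902 bases apart and S100A3 inside the span of S100A4 without sharing an exon base. S100A16 and S100A14 are neighbours at 1109 bases on the same strand, yet S100A14 was 2.22-fold lower and S100A16 was not called. S100A4, S100A3 and S100A2 follow each other, of which S100A4 and S100A3 were called lower and S100A2 was level. Between the outermost of the 10 members, 78 other genes start, and 66 of them had 0 counts in every library, among them involucrin (IVL), loricrin (LORICRIN) and SPRR1B of the cornified envelope. The 7 S100-fused genes, which join an S100 domain to long repeats, FLG, HRNR and TCHH among them, had at most 9 counts in a library. Only S100A3 and the lncRNA ENSG00000285867 passed the filter between the members, and the lncRNA was not called (log2 fold change -0.09, adjusted p = 0.721 by edgeR).

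Promoter sequence was read for the members from RefSeq (GRCh38.p14), as the 250 bases before each annotated start, to set the genes that were lower beside abundant ones that were not called. All 10 members had at least 1 such window, 14 in all. The TATA box motif TATAAA was searched for on both strands, as was the CCAAT box. The GC box was searched for as GGGCGG and the AP-1 site as TGANTCA, which reads alike on both strands. TATAAA occurred in 4 of the 10 genes, S100A4, S100A7, S100A8 and S100A9, where 10.7% of 35116 windows held it. GGGCGG occurred in 5, S100A6, S100A9, S100A10, S100A11 and S100A16, against 42.6% of windows. CCAAT occurred in 2 genes (32.0% of windows) and TGANTCA in S100A2 alone (6.57%). A gene was counted when any of its windows held the motif, while each percentage is of single windows. The gene counts and the percentages are therefore unlike measures. Windows of S100A9, S100A4 and S100A8 are shown first, then those of S100A10 and S100A11, each 5′ to 3′ on the gene's strand. Capitals mark matches, and CCGCCC in the S100A9 window is GGGCGG on the other strand. The RefSeq starts of S100A4 and S100A11 lie inside the spans given above. The window of S100A6 and a window of S100A2 lie wholly within annotated exons of those genes.
S100A9 (chr1:153357604-153357853, plus): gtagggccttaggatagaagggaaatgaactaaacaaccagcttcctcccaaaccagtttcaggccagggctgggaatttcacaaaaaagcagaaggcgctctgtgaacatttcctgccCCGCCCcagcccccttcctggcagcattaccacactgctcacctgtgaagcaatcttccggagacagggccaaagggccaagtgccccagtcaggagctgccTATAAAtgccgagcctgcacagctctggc
S100A4 (chr1:153545807-153546056, minus): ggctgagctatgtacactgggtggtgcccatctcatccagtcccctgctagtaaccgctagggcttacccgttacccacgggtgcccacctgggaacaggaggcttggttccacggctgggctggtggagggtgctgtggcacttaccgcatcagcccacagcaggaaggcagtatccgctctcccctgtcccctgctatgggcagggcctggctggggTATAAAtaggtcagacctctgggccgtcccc
S100A8 (chr1:153391074-153391323, minus): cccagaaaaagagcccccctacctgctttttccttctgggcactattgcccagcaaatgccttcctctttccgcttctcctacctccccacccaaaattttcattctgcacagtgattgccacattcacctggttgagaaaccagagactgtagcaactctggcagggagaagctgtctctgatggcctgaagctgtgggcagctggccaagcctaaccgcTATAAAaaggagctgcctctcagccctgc
S100A10 (chr1:151993860-151994109, minus): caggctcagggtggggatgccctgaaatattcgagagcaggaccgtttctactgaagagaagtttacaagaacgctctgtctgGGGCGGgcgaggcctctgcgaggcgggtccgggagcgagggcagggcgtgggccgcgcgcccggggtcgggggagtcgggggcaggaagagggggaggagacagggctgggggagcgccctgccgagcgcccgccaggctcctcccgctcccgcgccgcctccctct
S100A11 (chr1:152037005-152037254, minus): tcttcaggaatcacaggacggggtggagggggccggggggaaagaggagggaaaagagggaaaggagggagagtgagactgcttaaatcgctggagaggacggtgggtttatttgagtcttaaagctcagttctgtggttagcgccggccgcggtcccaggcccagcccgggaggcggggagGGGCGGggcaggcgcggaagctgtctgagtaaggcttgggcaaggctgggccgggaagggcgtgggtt

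In the first 3 windows the TATAAA match begins 29, 31 and 29 bases before the start. These windows hold 4, 7 and 2 CpG dinucleotides, where the median of all windows is 11, while those of S100A10 and S100A11 hold 24 and 15. The count does not separate the called members, since the window of S100A6, which was lower, holds 24, and the windows of S100A2 (4 and 3) and S100A16 (1 and 6), which were not called, hold few. A TATAAA match is not particular to the genes that were lower, since S100P, which was not called, has one 28 bases before its start, and S100A14, which was lower, has none in its window. A match describes letters only, and binding at these windows was not measured.

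Genes of 9 partners inside the cell were examined next. All 9 were tested, and 4 were called higher and 0 lower, where 9.36% of all tested genes were called higher and 11.4% lower. At an unadjusted p under 0.05, 6 were higher and 1 lower, and DESeq2 called 5 higher and 1 lower. Over all genes, 5854 of 15130 had an unadjusted p under 0.05 in either direction. DESeq2 called 1498 of 27552 genes higher and 1519 lower. AHNAK, a giant scaffold bound by the S100A10 complex, stood at 602, 619 and 677 CPM in control and at 720, 962 and 824 CPM with overexpression (log2 fold change 0.40 ± 0.10, adjusted p = 0.0196 by edgeR). ANXA1, the annexin bound by S100A11, stood at 190, 190 and 206 CPM in control and at 222, 275 and 228 CPM with overexpression (0.30 ± 0.08, adjusted p = 0.0286 by edgeR). Both rose without overlap between the groups, and replicate 2 was the highest overexpressing library in each. The scaffold IQGAP1 (0.31, adjusted p = 0.0388 by edgeR) and the calcyclin-binding protein gene CACYBP (0.18, adjusted p = 0.0441 by edgeR) were also called higher. With the GC and length trend removed, AHNAK (0.31) and IQGAP1 (0.16) were still called, the latter at a smaller value, ANXA1 was not (0.18, adjusted p = 0.0513), CACYBP moved to 0.03 (adjusted p = 0.787), and ANXA2 and MYH9 were called higher (adjusted p = 0.00831 and 0.000715). MYH9, the myosin bound by S100A4, had an uncorrected value of 0.19 (adjusted p = 0.0587 by edgeR) and ANXA2 one of 0.19 (adjusted p = 0.0520). ANXA11 at -0.19 (adjusted p = 0.0525), ANXA6 at -0.13 (adjusted p = 0.245) and S100PBP at 0.02 (adjusted p = 0.885) were not called.

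Ratios of S100 transcripts to those of their partners were formed within each library. The log2 ratio of S100A10 to ANXA2, both in CPM, was -1.98, -1.86 and -2.11 in control and -2.28, -2.34 and -2.27 with overexpression. That of S100A11 to ANXA1 was 1.26, 1.30 and 0.99 in control and 0.91, 0.33 and 0.72 with overexpression. The groups did not overlap for either pair, nor for the pairs of S100A6 below. Neither S100A10 nor S100A11 was called by itself, while ANXA2 and ANXA1 each rose without overlap. Of single tested genes, 20.4% lay below and 19.7% above without overlap, and no such share was computed for ratios. The ratio of S100A6 to CACYBP differed by -0.61 between the group means, and that of S100A6 to ANXA11 by -0.24. With the GC and length trend removed, the difference was -0.30 for S100A10 and ANXA2 against -0.31 before, but -0.30 for S100A11 and ANXA1 against -0.53, -0.31 for S100A6 and CACYBP, and -0.12 for S100A6 and ANXA11. These ratios were not tested.

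Of 7 genes for surface proteins that bind released S100 proteins, 6 were tested, 1 was called lower and 2 higher, where 20.8% of all tested genes were called in either direction. MCAM, the melanoma cell adhesion molecule, stood at 124, 121 and 114 CPM in control and at 92.0, 82.1 and 92.6 CPM with overexpression. It was lower without overlap (log2 fold change -0.43 ± 0.06, adjusted p = 0.00303 by edgeR) and was called under all 15 alternatives. NPTN, neuroplastin, stood at 313, 313 and 318 CPM in control and at 355, 355 and 353 CPM with overexpression, a small rise with very little spread (0.17 ± 0.05, adjusted p = 0.0361 by edgeR). ALCAM was higher (0.48 ± 0.14, adjusted p = 0.0427 by edgeR), a call lost when the GC and length trend was removed (adjusted p = 0.0631). The receptors most often linked to calprotectin were not called: AGER, which encodes RAGE and had under 1.1 CPM in each library, at 0.42 (adjusted p = 0.330), TLR4 at -0.05 (adjusted p = 0.808) and BSG, basigin, at -0.14 (adjusted p = 0.249), all by edgeR. TLR4 moved to -0.33 with the GC and length trend removed (adjusted p = 0.0522) and was called lower with the replicate block added (-0.32, adjusted p = 0.0426). CD36 was too low to be tested. Of the 7 calls among partners and receptors, 1 was left without control replicate 1, control replicate 2 or overexpression replicate 3, and 2 without overexpression replicate 2.

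The genes whose profile over the 6 libraries was most like that of S100A9 were BICDL1, S100A13 and EDEM2. Their Pearson correlations with S100A9 were 0.998, 0.998 and 0.996 on the log2 scale of CPM plus 0.1, the highest among 13369 genes of at least 1 CPM, as a description over 6 libraries that fall into 2 groups. BICDL1 ran from 17.2 to 18.3 CPM in control and from 11.6 to 15.2 CPM with overexpression. EDEM2 ran from 35.1 to 36.4 CPM and from 25.8 to 31.6 CPM. With the GC and length trend removed the log2 fold change of BICDL1 went from -0.41 to -0.19, and its call was lost. In all 4 genes overexpression replicate 2 was the lowest library and replicate 1 the highest of its group.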

How the data were processed

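RNA from 3 control and 3 P4HA3-overexpressing SiHa PR samples was analysed. According to the methods, the authors purified poly-A RNA, made strand-specific libraries, sequenced paired ends, aligned reads to GRCh38 (Ensembl 104) with STAR and counted them per gene with HTSeq, whereas the submitters' processing notes name HISAT2. The strand setting and the handling of reads with several matches are not given in the sources used here. The deposited values are raw counts of 60664 genes, without normalization, and 60463 gene identifiers matched the GENCODE annotation used here. Groups were taken from the sample titles.

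Counts were tested in R 4.3.3 with edgeR 4.0.16 (filterByExpr with a minimum count of 10, TMM, two-sided quasi-likelihood test) and adjusted by Benjamini-Hochberg over the 15130 genes tested. SE is the log2 fold change divided by the root of F. DESeq2 1.42.0, other normalizations and filters, a replicate block, each library left out and a correction for GC content and length (mgcv 1.9.3) were the alternatives. Library totals ran from 21773488 to 24939948 counts, so that 3 counts correspond to 0.120 to 0.138 CPM and low genes are limited by counting. Replicates differed by more than sampling noise (chi-square per gene between 4.79 and 16.2), and the biological coefficient of variation was 7.66%.

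The members, the gene lists and the tests were chosen with earlier results of these data known. Named genes are all members, the tested genes of the other S100, partner and receptor lists, called genes of the region, P4HA3, and the 3 genes most like the tested member that changed most. Markers, low S100 genes and genes of the region below the filter were named after their values were seen. Promoter windows are from RefSeq. The test was checked on simulated data.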

Additional observations from a re-analysis of the deposited data

How the results depend on the processing

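Counts of calls moved by over 1.5 times only when a library was left out. Over all alternatives, members called lower ranged from 2 to 6 (4 in the main fit) and other S100 genes called from 0 to 3 (2). Partners and receptors called ranged from 1 to 10 (7) and genes of the region called from 0 to 1 (1). The lowest counts came without control replicate 1, control replicate 2 or overexpression replicate 3, where calls over all genes fell from 3147 to 781, 534 and 904, and calls were 5530 without overexpression replicate 1. The cause was not tested. Members called higher stayed at 0 under every alternative that was run. Direction was reversed only in genes that were not called. S100A2 turned to 0.010 with library sizes only, 0.005 without a filter and 0.112 with the GC and length correction, S100A16 to 0.011, BSG to 0.114 and S100PBP to -0.116 with that correction. With a library left out, S100A2 ranged from -0.100 to 0.070, S100P from -0.098 to 0.127, S100PBP from -0.008 to 0.059 and TLR4 from -0.192 to 0.055. The replicate numbers were not treated as pairs, since samples of one number deviated together with correlations of 0.25, -0.05 and 0.03. With the replicate block 5 members, 2 other S100 genes and 8 partners and receptors were called, and 4, 3 and 10 with the block and the GC and length correction, under which S100A2 was 0.113, S100A16 0.010, S100PBP -0.117 and BSG 0.114. Of 433 alternative values for 29 tested genes, 327 kept direction and call, 54 lost the call, 32 gained one and 20 turned direction. S100A8, and S100A9 and S100A14 with overexpression, had means under 1 CPM and rest on few counts. S100A9 had 8 counts in overexpression replicate 2, so it was not tested under the filter of at least 10 counts in every library.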
